A study of Glycine max with 60 samples.

Results

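The 88 genes described here encode late embryogenesis abundant (LEA) proteins, dehydrins and seed maturation proteins of soybean. They were selected on annotation. A gene was a member where its closest Arabidopsis match or its UniRef match contained the words late embryogenesis, dehydrin or seed maturation protein. Only the 13166 genes that the authors had called between lines or between adjacent stages carried such annotation, of 56044 genes counted. The members were therefore chosen by measured changes in these libraries, and every value below from those 26 comparisons, or from S5 against S1, which is the sum of the steps between adjacent stages, is a description without a test. By wording, 69 members matched late embryogenesis, 23 seed maturation protein and 5 dehydrin, and some matched more than 1 of these. The members were divided into 5 dehydrins, 39 hydroxyproline-rich glycoproteins and 44 other LEA and seed maturation genes.

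Whole developing seeds of 4 lines were sequenced at 5 stages, with 3 libraries per line and stage. The line 3mlpa carried the alleles mips1/mrp-l/mrp-n and its sister line 3MWT carried MIPS1/MRP-L/MRP-N. The line 1mlpa carried mips1/MRP-L/MRP-N and its sister 1MWT carried MIPS1/MRP-L/MRP-N. MIPS1 encodes the enzyme that makes inositol phosphate, the first step towards phytic acid, and the MRP genes encode ABC transporters. The pair 3mlpa and 3MWT are recombinant inbred lines from a cross with CX-1834, and the pair 1mlpa and 1MWT are near-isogenic lines with Essex as a parent; a low phytic acid line with the mips1 mutation was the other parent of both crosses. No treatment was applied to any line, and a stage was a class of seed length: 2 to 4 mm at S1, 4 to 6 mm at S2, 6 to 8 mm at S3, 8 to 10 mm at S4 and 10 to 12 mm at S5. Libraries of 3mlpa and 3MWT came from earlier published work and were analysed anew, whereas those of 1mlpa and 1MWT were new, so the line pair and the set of libraries cannot be told apart. Nothing in the labels said that the 3 libraries of a group came from separate plants, so every error below covers only the spread between these libraries.

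LEA proteins accumulate late in seed development, when the embryo acquires tolerance to drying. They are mostly hydrophilic and disordered in solution, and are known for protecting membranes and proteins during water loss. Dehydrins form 1 class of LEA proteins, marked by a lysine-rich K-segment. Abscisic acid and the transcription factors ABI3, FUS3, LEC2 and ABI5 drive these genes in Arabidopsis seeds. The hydroxyproline-rich members carry the LEA name through a shared domain (group 2 LEA). Most of them belong to the NDR1/HIN1-like (NHL) family, named after Arabidopsis NDR1, which acts in disease resistance, and tobacco HIN1, which is induced by the bacterial protein harpin.

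Libraries held 17359192 to 42800413 counted reads (median 25314824). Levels are given as RPKM (reads divided by gene length and library size) scaled by the trimmed mean of M-values (TMM). Differences are log2 fold changes from edgeR with a standard error (SE). The SE was worked back from edgeR's test, as the size of the change divided by the square root of the F statistic. The 10 most abundant genes took 2.12 to 5.62% of a library's reads at S1 and 23.0 to 32.9% at S5, and the members took 0.0672 to 0.166% and 0.423 to 0.618%, respectively. Summed RPKM of 5 storage protein genes that match Arabidopsis cruciferins and mark the embryo was 0.164 to 33.3 at S1 and 34170 to 84000 at S5, whereas 12 seed coat pigment genes summed to 258 to 462 and 23.1 to 62.1. Glyma.08G062000 and Glyma.14G032400 held 88.0 to 96.4% of the pigment gene sum at S1. From S1 to S5, 3 to 6 of the 12 were called lower and 3 to 4 higher, such as Glyma.10G219100, which went from 0 to 0.341 RPKM at S1 to 5.64 to 13.3 at S5. Transcripts of the genes with the mutations were present in every line. Median levels were 1007 to 1377 RPKM for MIPS1 (Glyma.11G238800), 9.73 to 11.5 for MRP-L (Glyma.19G169000) and 8.83 to 11.5 for MRP-N (Glyma.03G167800). In whole seeds, fewer cells of a type and less RNA per cell cannot be told apart.

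Some libraries stood apart over the maturation and dehydrin members at 1 RPKM or more. The ratio of a library to the mean of the other 2 of its group, as a median over those members, was 4.03 in 3MWT S1 replicate 2, 2.65 in 3mlpa S4 replicate 3, 2.13 in 1mlpa S3 replicate 2, 2.01 in 1MWT S2 replicate 3, 0.365 in 3mlpa S3 replicate 1, 0.449 in 1mlpa S3 replicate 3 and 0.422 in 1MWT S2 replicate 1. In 3mlpa at S3, replicate 1 was lowest of the 3 in 40 of 44 such members. Its storage protein genes summed to 484 RPKM, against 6274 and 5605 in replicates 2 and 3. At S4 in 3mlpa, replicate 3 was highest in 39 of 43 members, and its storage sum was 34510 RPKM against 6860 and 8376. In 3mlpa at S5, replicate 3 had a ratio of 1.16. It differed widely from the others at some genes picked after their values were seen. Replicates 1 to 3 had 28.35, 33.34 and 0.0933 RPKM for the light harvesting gene Glyma.16G162600 and 1.056, 1.445 and 0.0572 for Glyma.08G109500. They had 788.5, 675.3 and 155.3 for the storage gene Glyma.19G164900, although storage sums were 52070, 41350 and 55680. Why this library differed was not tested. Counts of calls that moved by more than 1.5 times without a library are given below with that library.

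Most of the 44 LEA and seed maturation genes were low in the smallest seeds and abundant in the largest. From S1 to S5, 32, 33, 35 and 34 were called higher in 3mlpa, 3MWT, 1mlpa and 1MWT, respectively. Called means an adjusted p under 0.01 and a change above 1 on the log2 scale. Over all members, 46 were higher and 22 lower in 3mlpa, 50 higher and 8 lower in 3MWT, 49 higher and 14 lower in 1mlpa, and 48 higher and 23 lower in 1MWT. The background is given beside these counts and nothing is read from the contrast, since the steps chose the members. Among the 40517 genes tested, 12.9% were called higher and 19.3% lower in 3mlpa, 13.3% higher and 16.0% lower in 3MWT, 13% higher and 18.8% lower in 1mlpa, and 12.6% higher and 20% lower in 1MWT. Of the 88 members, 87 passed the filter on low counts, and Glyma.03G201100 did not. The median change of the 44 genes was 3.80, 4.36, 5.13 and 4.29 on the log2 scale for 3mlpa, 3MWT, 1mlpa and 1MWT, with genes without a read in a group set at the bound that 3 counts give, against -0.04 to -0.05 over all genes. Scaling to library totals in place of TMM moved the all-gene medians to -0.90 to -1.02, and the split of members to 39 higher and 30 lower in 3mlpa, 45 higher and 20 lower in 3MWT, 44 higher and 20 lower in 1mlpa, and 43 higher and 30 lower in 1MWT.

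The most abundant member was Glyma.13G363300, annotated as seed maturation protein PM30 and matching an Arabidopsis LEA family protein. Its S1 levels in replicates 1 to 3 were 52.0, 26.3 and 56.2 RPKM for 3mlpa, 20.6, 85.6 and 18.7 for 3MWT, 20.8, 22.4 and 23.1 for 1mlpa and 43.9, 50.0 and 47.6 in 1MWT. Its S5 levels were 2530, 2154 and 1929 for 3mlpa, 2323, 2533 and 2475 for 3MWT, 2780, 2259 and 2668 for 1mlpa and 2968, 2188 and 2922 for 1MWT. All S5 libraries stood far above all S1 libraries, and the S5 ranges of the lines overlapped. The change was 5.62 ± 0.53 (log2, SE) for 3mlpa, 5.88 ± 0.54 for 3MWT, 6.86 ± 0.56 for 1mlpa and 5.83 ± 0.54 in 1MWT.

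Next in abundance were Glyma.10G155300 and Glyma.20G233000, a pair annotated as PM34, which match an Arabidopsis protein with an NAD(P)-binding fold rather than a typical LEA protein. Near-identical copies may share reads, so the split between them is uncertain. Glyma.10G155300 had 3.73, 2.24 and 3.69 RPKM at S1 and 1486, 1240 and 1655 at S5 in 3mlpa, and 9.03, 7.72 and 9.54 at S1 and 2174, 1381 and 2036 at S5 in 1MWT. Glyma.20G233000 had 4.17, 2.81 and 4.92 at S1 and 663, 561 and 821 at S5 in 3mlpa, and 11.5, 8.34 and 9.31 at S1 and 1119, 846 and 932 at S5 in 1MWT. Both copies thus rose together, by 8.82 ± 0.70 and 7.42 ± 0.59 on the log2 scale in 3mlpa, and by 7.73 ± 0.67 and 6.64 ± 0.57 in 1MWT.

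Genes of classical LEA classes followed. Glyma.18G203500, the match of Arabidopsis EM1, had 2.02, 14.5 and 2.37 RPKM at S1 and 219.7, 224 and 236 at S5 in 3MWT. Glyma.03G144400, the match of LEA4-5, had 2.28, 11.8 and 2.32 at S1 and 169.8, 176 and 179 at S5, and Glyma.U018200, a D-34 protein matching the abscisic acid responsive RAB28, had 14.0, 47.5 and 14.97 at S1 and 215, 205 and 196 at S5. In each of these genes, 3MWT S1 replicate 2 was the high one of its group and was still below every S5 library. Changes in the 4 lines were 4.61 to 6.15 for Glyma.18G203500, 4.79 to 6.20 for Glyma.03G144400 and 3.01 to 3.83 for Glyma.U018200 (log2). The change was largest in 1mlpa for the first and second, and in 3mlpa for Glyma.U018200.

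Larger ratios came from genes near 0 at S1. Glyma.02G076600 (PM31), whose Arabidopsis match is a small heat shock protein of the HSP20 type, had 0, 0.103 and 0.0731 RPKM at S1 and 146, 40.7 and 210.2 at S5 in 1mlpa. It had 0.190, 0.311 and 0.225 at S1 and 182, 54.6 and 226 at S5 in 1MWT. Glyma.07G064700, a Lea14 homolog of the group 2 LEA class, had 0.400, 0.328 and 0.339 at S1 and 106, 48.9 and 101.1 at S5 in 1MWT, a change of 7.88 ± 0.61 (log2, SE). Glyma.13G291800, a seed biotinylated protein, was called in 3MWT, 1mlpa and 1MWT but not in 3mlpa, where S1 levels were already 3.01, 0.722 and 5.03 RPKM and S5 levels were 14.1, 8.05 and 21.0. For Glyma.05G103100 (PM21), no read was counted at S1 in 3MWT, 1mlpa and 1MWT. Against a floor of 3 counts over the group, its S5 level was at least 22.6-fold higher in 3MWT, at least 18.1-fold higher in 1mlpa and at least 19.6-fold higher in 1MWT.

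Few LEA and seed maturation genes went the other way. In all, 3, 2, 3 and 5 were called lower at S5 in 3mlpa, 3MWT, 1mlpa and 1MWT. Glyma.14G037300, a group 2 LEA gene, had 38.2, 34.9 and 41.2 RPKM at S1 and 11.4, 15.7 and 11.8 at S5 in 1mlpa. It was called lower in every line but 3MWT, where the levels were 33.1, 24.2 and 38.4 at S1 and 19.7, 19.7 and 16.1 at S5. Glyma.19G211600 and Glyma.10G017600, named after the auxin-induced mung bean protein ARG2 and matching an Arabidopsis LEA3 family protein, were called lower in 3MWT, by -3.11 ± 0.40 and -4.37 ± 1.32 (log2, SE). Glyma.19G211600 was also called lower in 1mlpa and 1MWT, and Glyma.10G017600 in no other line. The 1MWT call of Glyma.19G211600 (-1.14) was lost in 4 of 6 fits that left out a library. Glyma.10G017600 was uneven between replicates. Its S1 level in 3MWT was 0.834, 33.3 and 0.960 RPKM, and without replicate 2 the change was -0.68 and not called. The call was also lost without any single S5 library of 3MWT (-4.15 to -4.52).

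Of the 5 dehydrins, 4 were called higher at S5 in every line. Glyma.04G009900, the most abundant at S5, had 16.4, 7.96 and 15.7 RPKM at S1 and 519, 449.8 and 651 at S5 in 3mlpa, and 3.32, 16.6 and 3.54 at S1 and 306, 344 and 409 at S5 in 3MWT. It had 4.44, 4.24 and 5.05 at S1 and 635, 419 and 649.6 at S5 in 1mlpa, and 10.2, 11.2 and 10.8 at S1 and 674, 396 and 668 at S5 in 1MWT. No S1 library reached the lowest S5 library in any line. Changes over the lines were 5.34 to 6.95 for Glyma.04G009900, 5.91 to 7.92 for Glyma.08G048900 (matching XERO1), 5.90 to 7.82 for Glyma.13G201300 (a Y3SK2 dehydrin, named for its Y-, S- and K-segments) and 5.53 to 7.08 for Glyma.12G235800 (log2), and in each gene 1mlpa had the largest.

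The fifth dehydrin ran in the other direction. Glyma.19G114700, a KS-type dehydrin, had 112, 126 and 104.6 RPKM for 3mlpa, 86.8, 50.3 and 102 for 3MWT, 149.7, 166 and 169 for 1mlpa and 148, 241 and 222 for 1MWT at S1. At S5 it had 95.8, 87.2 and 18.4 for 3mlpa, 48.7, 50.8 and 51.6 for 3MWT, 63.8, 68.0 and 60.7 for 1mlpa and 63.9, 66.0 and 81.2 for 1MWT. It was the most abundant dehydrin at S1 and was called lower at S5 in 1mlpa and 1MWT, by -1.33 ± 0.29 and -1.53 ± 0.29, and not in 3mlpa (-0.77 ± 0.28) or 3MWT (-0.66 ± 0.28). In 3mlpa it was called when S5 replicate 1 (-1.11) or 2 (-1.001) was left out, and with library totals in place of TMM it was called in both 3mlpa (-1.68) and 3MWT (-1.51). The S5 groups of 3mlpa and 3MWT overlapped, as replicate 3 of 3mlpa was far below the other 2.

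**Figure D1:**
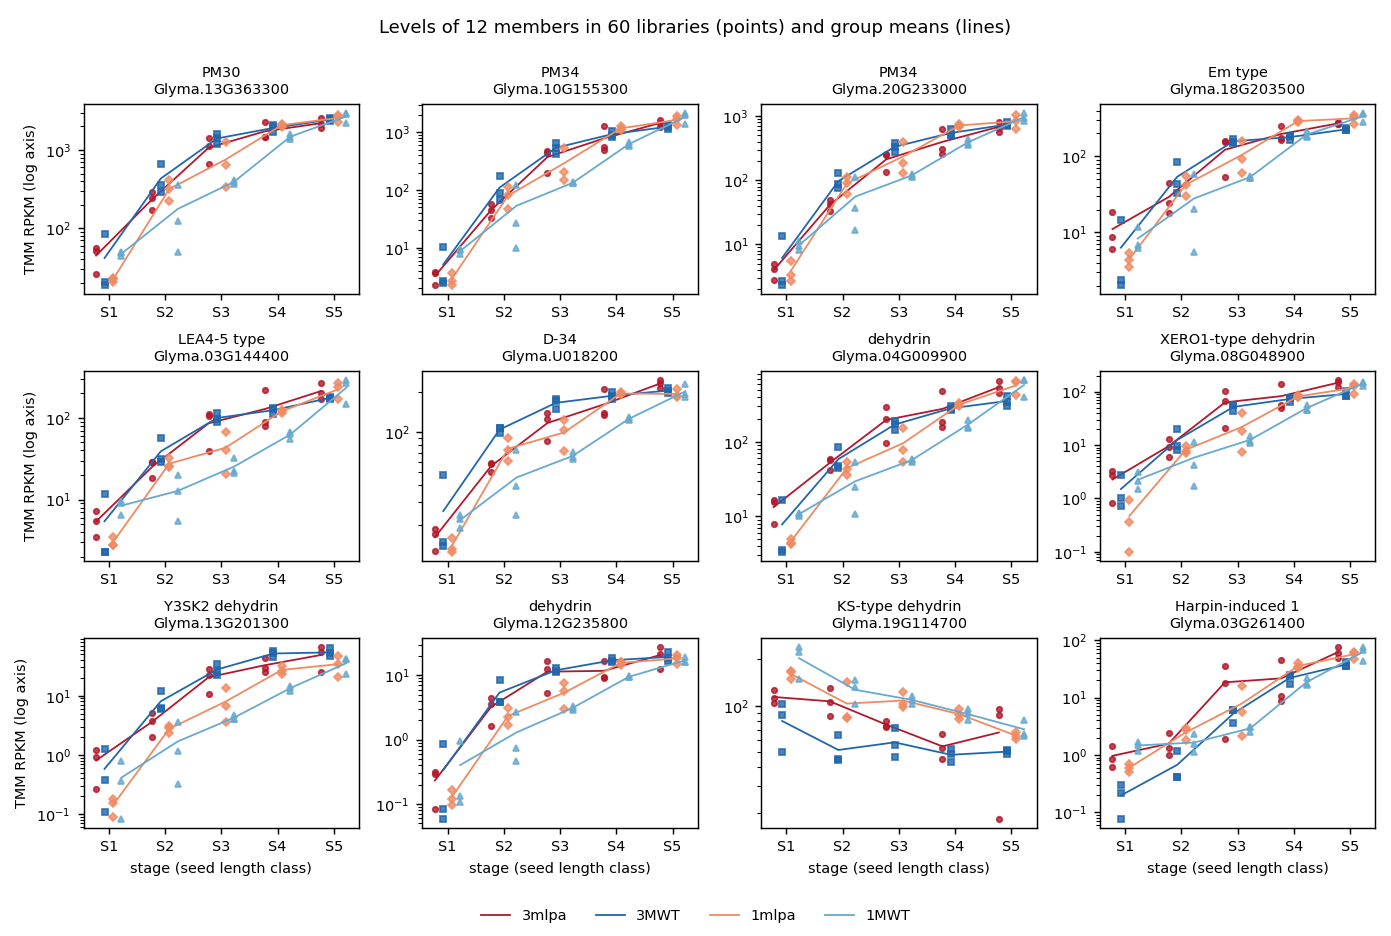
Levels of the 6 most abundant LEA and seed maturation genes, the 5 dehydrins and Glyma.03G261400, in TMM-scaled RPKM on a log axis, against stage. Points are libraries (3 per line and stage), lines join group means, and colours and marker shapes mark the soybean lines. Apart from the KS-type dehydrin Glyma.19G114700, every gene climbed from S1 to S5, and the 1MWT mean (light blue) lay below that of 3MWT (dark blue) at S3 in every LEA gene and dehydrin that climbed.

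The 39 hydroxyproline-rich genes did not move as a group. From S1 to S5, 10 were called higher and 19 lower in 3mlpa, 13 higher and 6 lower in 3MWT, 10 higher and 10 lower in 1mlpa, and 10 higher and 17 lower in 1MWT, with median changes at the bound of -1.35, -0.51, -0.56 and -0.93 (log2). In all 4 lines 9 were higher and 6 lower, compared with 30 higher and 0 lower of the other LEA and seed maturation genes. Altogether 43 members were higher in all 4 lines, 6 were lower in all 4, none was called in opposite directions in different lines, and 5 were called in no line. Of the 6, Glyma.02G274400 had an unsteady call in 3MWT (-2.376). It was lost in 4 of 6 fits that left out a library (-2.577 to -1.055). With only the compared libraries (-2.40) or the replicate number as a block (-2.29) it was lost too.

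Among those called higher in all lines, Glyma.03G261400 and Glyma.19G260500 share the Arabidopsis match AT4G01410 and the UniRef name Harpin-induced 1. Glyma.03G261400 had 0.0758, 0.299 and 0.213 RPKM at S1 and 35.3, 35.1 and 42.7 at S5 in 3MWT, and 1.49, 1.71 and 1.18 at S1 and 75.8, 42.98 and 68.3 at S5 in 1MWT. Glyma.19G260500 had 1.74, 2.04 and 1.71 at S1 and 21.9, 25.9 and 36.6 at S5 in 3MWT, and 2.26, 2.30 and 2.02 at S1 and 49.6, 22.6 and 46.0 at S5 in 1MWT. Their S1 and S5 groups did not overlap in any line, and the changes were 5.39 to 7.64 and 3.74 to 4.22 (log2). In 3mlpa at S3, where replicate 1 stood apart, Glyma.03G261400 had 1.87, 35.4 and 18.2 RPKM. Lower levels but similar changes were seen for Glyma.07G009700, with 0.148, 0.111 and 0.142 RPKM at S1 and 5.29, 5.27 and 5.11 at S5 in 3mlpa. The neighbouring genes Glyma.08G206400 and Glyma.08G206500, both matching AT1G52330, were also higher at S5 in every line. The call of Glyma.08G206400 in 3mlpa was lost without S5 replicate 1 (2.92) or 2 (2.89).

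Glyma.12G093600, named NHL1, was called lower in every line. It had 5.59, 6.96 and 6.04 RPKM at S1 and 0.171, 0.0958 and 0.1247 at S5 in 3mlpa, and 6.22, 7.17 and 6.44 at S1 and 0.0211, 0.0844 and 0.0655 at S5 in 1MWT, changes of -5.58 ± 0.45 and -6.82 ± 0.51 (log2, SE). Most of this fall came late, since S3 levels were still 3.82, 3.73 and 3.28 RPKM in 1MWT. Another gene named NHL1, Glyma.12G187600, was higher at S4 than at S1 or S5 in 1mlpa, whereas it was called higher at S5 in 3MWT (levels below). Its levels in 1mlpa were 16.1, 16.0 and 22.6 RPKM at S1, 44.8, 38.2 and 36.6 at S4 and 19.5, 24.0 and 13.9 at S5. The most abundant hydroxyproline-rich genes at S1 in 3mlpa, 1mlpa and 1MWT were Glyma.14G041700 and Glyma.02G274400, named after tobacco genes that respond to the Avr9 peptide of a fungus. Glyma.14G041700 had 52.3, 93.8 and 141 RPKM at S1 and 4.04, 14.6 and 4.37 at S5 in 1MWT, and Glyma.02G274400 had 30.2, 52.9 and 93.5 at S1 and 1.98, 7.43 and 2.20 at S5.

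**Figure D2:**
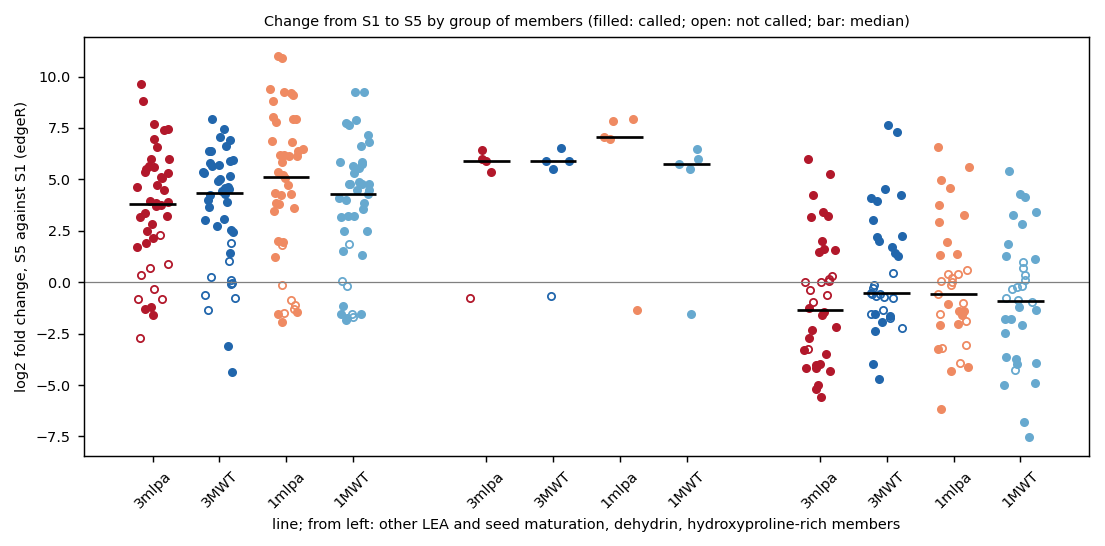
Log2 fold change from S1 to S5 (vertical axis) of each member, by group of members and line, with a bar at the median. Filled points were called and open points were not; members without a read in a compared group are left out of the points and enter the median at their bound. Most LEA and seed maturation genes and 4 of 5 dehydrins lie above 0 and the hydroxyproline-rich genes lie on both sides.

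Lines differed in when the rise took place. For the 43 members that were higher at S5 in all lines, the median level at S3, as a percent of the same line's S5 level, was 50.0 for 3mlpa, 57.3 for 3MWT, 20.3 for 1mlpa and 12.4 for 1MWT. At S4 it was 56.4, 81.8, 62.2 and 34.4, respectively. Without 3mlpa S4 replicate 3 the S4 value of 3mlpa was 36.2, close to that of 1MWT. Leaving out 3mlpa S3 replicate 2 gave 35.6 at S3, and the other single libraries gave 46.3 to 57.9. In the 1mlpa pair, left-out libraries gave 11.6 to 26.9 at S3. The largest step fell between S1 and S2 for 22, 34, 38 and 11 of the 43 members of 3mlpa, 3MWT, 1mlpa and 1MWT, and between S4 and S5 for 23 in 1MWT, 1 in 1mlpa and 0 in both lines of the 3mlpa pair. Between S2 and S3 it fell for 20 members in 3mlpa. These step counts were not recomputed without single libraries. At S1 and S2, 3MWT S1 replicate 2 (4.03 times the mean of the other 2) and 1MWT S2 replicates 1 (0.422) and 3 (2.01) stood apart. PM30 illustrates the difference between lines. At S3 it had 1190, 1442 and 1584 RPKM in 3MWT and 419.5, 369.9 and 386 in 1MWT, with no overlap. Over the 16 steps between adjacent stages, 232 calls were made among members, from 0 to 35 per step, and 3.44% of all tests over those steps were called. Seed length defined the stages, so lines at one stage need not have been at the same age.

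**Figure D3:**
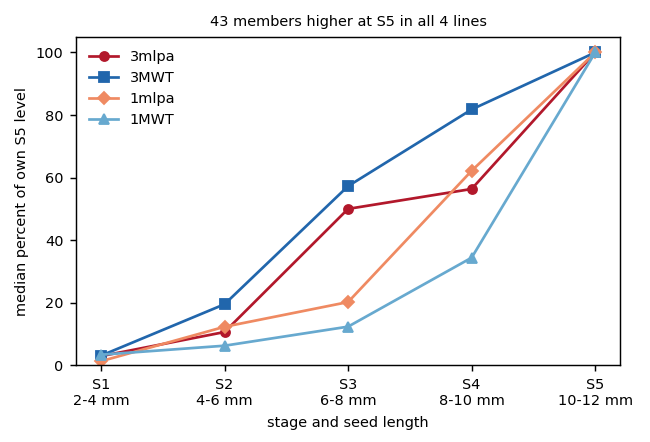
Median level of the 43 members that were higher at S5 in all 4 lines, as a percent of the same line's S5 level, against stage and seed length. At S4 the medians were 81.8% in 3MWT, 62.2% in 1mlpa, 56.4% in 3mlpa (36.2% without S4 replicate 3) and 34.4% in 1MWT; no error is drawn, as members are not replicates.

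Transcription factor genes of the maturation programme were taken by their Arabidopsis match, again only from annotated genes. From S1 to S5, 15 of 24 were called higher and 6 lower in 3mlpa, with 15 higher and 6 lower in 3MWT, 16 higher and 6 lower in 1mlpa, and 14 higher and 5 lower in 1MWT. Both ABI3 matches rose in every line, and Glyma.08G357600 went from 15.3 to 25.6 RPKM at S1 to 116.5 to 139.5 at S5 in 1MWT. Of the ABI5 matches, Glyma.13G153200 went from 0.269 to 0.559 RPKM to 62.7 to 99.4 in 1MWT. The LEC2 matches, which act early in embryo development, had no read at S5 in any line and at most 0.684 RPKM at S1. Between 3mlpa and 3MWT, 1 regulator was called at S1 and 1 at S2, in each case the LEC1-like gene Glyma.03G080700, which was lower in 3mlpa by 2.82 and 2.44 on the log2 scale. None was called between 1mlpa and 1MWT.

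Comparisons of 3mlpa with 3MWT asked which members differed between these sister lines within a stage. They are recombinant inbred lines, with 1 line per genotype, and may differ at other loci too. The mutations and the rest of the line's genome therefore cannot be told apart. At S1, 10 members were called higher and 1 lower in 3mlpa, against 4.59% and 1.62% of all genes. At S2, 4 were higher and 1 lower (3.38% and 1.34%), with 6 and 0 at S3 (3.22% and 1.30%). The S4 counts were 4 and 2 (1.07% and 1.30%), and those of S5 were 6 and 7 (1.69% and 2.58%). With only the compared libraries in the fit, which leaves fewer samples, 0 were higher and 1 lower at S1, so that none of the 10 higher calls was kept. For S2 to S5 the same fits called 4, 1, 1 and 1 higher and 2, 0, 1 and 0 lower. With library totals in place of TMM, the S5 split was 7 higher and 5 lower and that of S4 was 4 and 1. The counts also moved when single libraries were left out. The 11 calls at S1 became 2 and 6 when 3MWT replicates 1 and 3 were left out, and 4 when 3mlpa replicate 1 was. The 5 at S2 became 2 without 3MWT replicate 2 and 3 without any other single library. The 6 at S3 became 15 without 3mlpa replicate 1, 3 without 3mlpa replicate 2 or 3MWT replicate 1, and 2 without 3MWT replicate 2 or 3. The 6 at S4 became 3 without 3MWT replicate 2 or 3mlpa replicate 3, and the 13 at S5 became 5 and 8 without 3MWT replicates 1 and 2, and 8 and 7 without 3mlpa replicates 1 and 3.

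Glyma.03G189200, called higher in 3mlpa at S3, S4 and S5, encodes a 35 kDa seed maturation protein that matches Arabidopsis ECP63, a protein of embryonic cells. At S3 it had 2.68, 53.0 and 8.67 RPKM in 3mlpa and 0.721, 0.946 and 0.673 in 3MWT. At S4 it had 5.94, 6.99 and 19.9 in 3mlpa and 0.844, 0.959 and 0.723 in 3MWT, and at S5 61.4, 30.5 and 5.17 in 3mlpa and 0.854, 1.52 and 2.39 in 3MWT. No overlap between groups occurred at these 3 stages, although the 3 libraries of 3mlpa were far apart at S3 and S5. At S5, 1mlpa had 5.11, 2.41 and 6.11 and 1MWT 7.05, 2.52 and 7.22. Differences between 3mlpa and 3MWT were 4.77 ± 0.76, 3.67 ± 0.76 and 4.34 ± 0.73 (log2, SE). The S4 call was lost without 3mlpa replicate 3 (2.92), and all 3 calls were lost with only the compared libraries in the fit (4.79, 3.70 and 4.34).

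At S5, PM31, PM22 and a further LEA gene were called higher in 3mlpa as well. PM31 (Glyma.02G076600) had 138, 76.2 and 493 RPKM in 3mlpa and 27.8, 35.3 and 43.1 in 3MWT. PM22 (Glyma.16G031300), a Lea14-type gene, had 37.1, 23.3 and 27.6 in 3mlpa and 4.38, 5.90 and 4.97 in 3MWT, with 7.35, 3.52 and 20.7 in 1mlpa and 15.9, 7.74 and 18.1 in 1MWT. Glyma.17G040800 had 3.13, 2.14 and 6.80 in 3mlpa and 0.507, 0.458 and 0.930 in 3MWT. In each of the 3 genes every 3mlpa library lay above every 3MWT library, and the differences were 2.73 ± 0.76, 2.52 ± 0.61 and 2.67 ± 0.68. The PM31 call was lost without 3mlpa replicate 3 (1.59) or any 3MWT library (2.59 to 2.90), and that of Glyma.17G040800 without 3mlpa replicate 3 (2.04) or 3MWT replicate 1 (2.53) or 2 (2.48). Both were lost with only the compared libraries (2.76 and 2.69). The abundant genes PM30 and PM34 were not among the calls at any stage. The 44 LEA and seed maturation genes had a median difference of 0.62 (log2) at S5, with 20 higher and 4 lower without overlap, which held for 16.4% and 19.6% of all genes.

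At S1, seed maturation genes with calls had low levels. Glyma.13G291800, the biotinylated protein, had 3.01, 0.722 and 5.03 RPKM in 3mlpa and 0, 0.146 and 0 in 3MWT, and Glyma.17G164200 (PM21) had 4.13, 0.930 and 4.03 in 3mlpa and 0.159, 0.251 and 0.358 in 3MWT. Only the ARG2 homolog Glyma.19G211600 was called lower in 3mlpa, with 15.3, 19.9 and 13.01 RPKM against 58.0, 45.4 and 56.9 in 3MWT. The groups did not overlap, and in 3MWT its levels were 13.9, 14.0 and 12.2 at S2. At S2 the Lea14 homolog Glyma.09G254300 had 9.83, 7.29 and 5.92 RPKM in 3mlpa and 1.75, 1.798 and 3.93 in 3MWT. The call of Glyma.13G291800 was lost with only the compared libraries (5.97) and without 3mlpa replicate 3 (5.29) or 3MWT replicate 1 (5.24) or 3 (5.47), and that of Glyma.09G254300 without 3mlpa replicate 1 (1.34) or 3MWT replicate 1 (1.37) or 2 (1.38).

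Among the hydroxyproline-rich genes, Glyma.03G000800 (Harpin-induced 1) was higher in 3mlpa without overlap at every stage and was not called from S1 to S5 in any line. In 3mlpa the 15 libraries lay between 4.35 and 5.80 RPKM and in 3MWT between 1.33 and 3.29. The levels at S5 were 5.31, 5.57 and 4.68 RPKM for 3mlpa, 2.46, 1.33 and 1.79 for 3MWT, 7.90, 4.44 and 5.21 for 1mlpa and 6.88, 5.41 and 6.90 in 1MWT. Thus 3MWT stood below the other 3 lines, and the gene was called from S2 to S5, with differences of 1.30 to 1.48 (log2). Glyma.13G359200, which matches AT1G52330, was called lower in 3mlpa at S2, S4 and S5. It had 1.28, 1.42 and 1.12 RPKM at S4 for 3mlpa, 3.61, 3.71 and 2.43 for 3MWT, 5.27, 4.63 and 5.18 for 1mlpa and 4.96, 5.33 and 5.15 in 1MWT. At this stage 3mlpa stood below the other 3 lines. The call was lost without any single library but 3MWT replicate 3 (-1.24 to -1.43), and at S2 without 3mlpa replicate 2 (-1.17). Glyma.09G189900 had 2.51, 2.57 and 2.19 RPKM in 3mlpa and 5.60, 5.77 and 5.34 in 3MWT at S4.

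Further calls concerned genes at low to moderate levels. Glyma.15G065400 (a Harpin-induced family protein) had 0, 0.223 and 0.0829 RPKM in 3mlpa and 0.568, 0.299 and 0.636 in 3MWT at S5, and Glyma.01G152600, with a group 2 LEA domain and no known function, had 0.284, 0.372 and 0.622 in 3mlpa and 1.38, 1.66 and 1.39 in 3MWT. Both were called lower in 3mlpa. Glyma.18G073200 was called higher at S3, with 0.473, 1.29 and 0.483 RPKM in 3mlpa and 0.214, 0.273 and 0.231 in 3MWT, and again at S4. Glyma.13G000500 (Harpin-induced 1) was called higher at S3, with 5.84, 8.84 and 12.5 in 3mlpa and 3.88, 2.88 and 3.67 in 3MWT, and at S5. Glyma.06G303300, annotated as a plant cell wall protein, had 0.519, 0.0911 and 0.919 RPKM in 3mlpa and 0.0336, 0.0607 and 0.0567 in 3MWT at S2, a difference of 3.21 ± 0.90 (log2, SE). Each of these calls was lost without some single libraries. At S5 these were 3mlpa replicates 1 and 3 and 3MWT replicates 1 and 3 for Glyma.15G065400 (-2.08 to -1.70), and 3mlpa replicates 1 and 2 and 3MWT replicate 2 for Glyma.01G152600 (-1.55 to -1.65). At S3 they were 3mlpa replicate 2 (0.99) and every 3MWT library (1.56 to 1.75) for Glyma.18G073200, and 3mlpa replicate 3 (1.09) and 3MWT replicates 2 and 3 (1.26 and 1.42) for Glyma.13G000500. At S4, Glyma.18G073200 lost its call without 3mlpa replicate 3 (1.66) or 3MWT replicate 2 (1.72) or 3 (1.64). At S2, Glyma.06G303300 kept it only without 3mlpa replicate 2, with 2.47 to 3.29 in the fits that lost it.

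**Figure D4:**
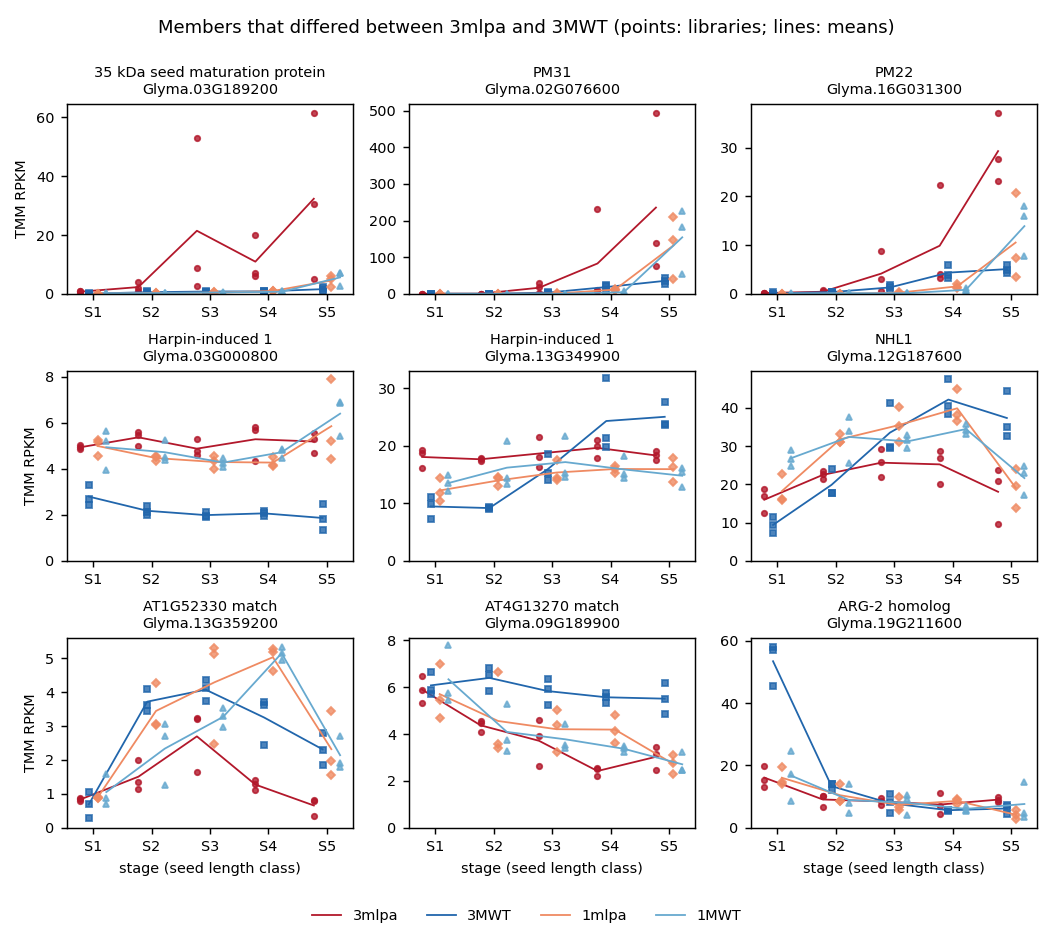
Levels in TMM-scaled RPKM (linear axes from 0) of 9 members by stage; points are libraries, 3 per line and stage, and lines join means. Glyma.03G000800 is lowest in 3MWT at every stage, Glyma.19G211600 is high in 3MWT at S1 alone, and the seed maturation genes of the top row are highest in 3mlpa at S5 with wide spread.

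A cluster of defence-named members stood out at S1. It comprises 12 hydroxyproline-rich genes whose Arabidopsis match is NHL10 (9 genes), AT2G35460 or AT2G27080, and was grouped after their values had been seen. Their UniRef names refer to hairpin (harpin) or to syringolide, a bacterial elicitor that soybean recognises, or to Avr9. At S1, 10 of the 12 were higher in 3mlpa than in 3MWT without overlap, and 11 were lower in 1mlpa than in 1MWT without overlap, with 9 in both sets. Over all genes, 18.5% were higher in 3mlpa and 9.43% lower in 1mlpa without overlap. The pattern is not particular to this cluster, as the authors reported the same opposite directions at S1 for several hormone-related genes. Glyma.03G201000 had 15.8, 10.3 and 1.99 RPKM for 3mlpa, 0.521, 0.285 and 1.13 for 3MWT, 3.28, 2.85 and 2.09 for 1mlpa and 5.84, 17.2 and 20.1 in 1MWT. Glyma.14G041700 had 133, 113 and 34.7 for 3mlpa, 7.58, 6.78 and 32.4 for 3MWT, 44.5, 30.0 and 37.4 for 1mlpa and 52.3, 93.8 and 141 for 1MWT. In both genes replicate 3 was far below the others in 3mlpa. The syringolide-named Glyma.10G079700 had 0.812, 0.576 and 0.390 for 3mlpa, 0.0672, 0.0442 and 0.189 for 3MWT, 0.157, 0.0958 and 0.0681 for 1mlpa and 0.397, 0.904 and 1.04 for 1MWT.

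Other genes of this cluster were near the limit of counting. For Glyma.03G201200, 60 reads were counted in the 3 libraries of 3mlpa at S1 and 0 in 3MWT, a level at least 16.4-fold higher against a floor of 3 counts over the group. For Glyma.03G201300, 313 and 3 reads gave a ratio of 85.4 (95% interval from counting alone, 29.0 to 416). For Glyma.19G198600 at S4, 124 and 1 reads gave 96.7 (17.0 to 3850), where 3mlpa replicate 3 alone had 6.33 RPKM and the other 2 had 0.458 and 0.136. Its call (6.54, log2) was lost without that library (3.72) or any 3MWT library (6.04 to 8.83). The S1 calls were lost without 3mlpa replicate 2 (5.60) or any 3MWT library (6.92 to 6.93) for Glyma.03G201200, and without 3mlpa replicate 1 (5.36) or any 3MWT library (5.56 to 7.15) for Glyma.03G201300. Several of these genes are neighbours on chromosomes 3 and 19 and may share reads, so values of single copies are uncertain. Summed seed coat genes at S1 were 328 to 370 RPKM for 3mlpa, 258 to 405 for 3MWT, 452 to 462 for 1mlpa and 393 to 415 for 1MWT. Storage protein genes summed to 0.164 to 10.6, 18.3 to 33.3, 0.787 to 1.16 and 19.6 to 24.5 in the same order. Their part in the result was not tested.

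**Figure D5:**
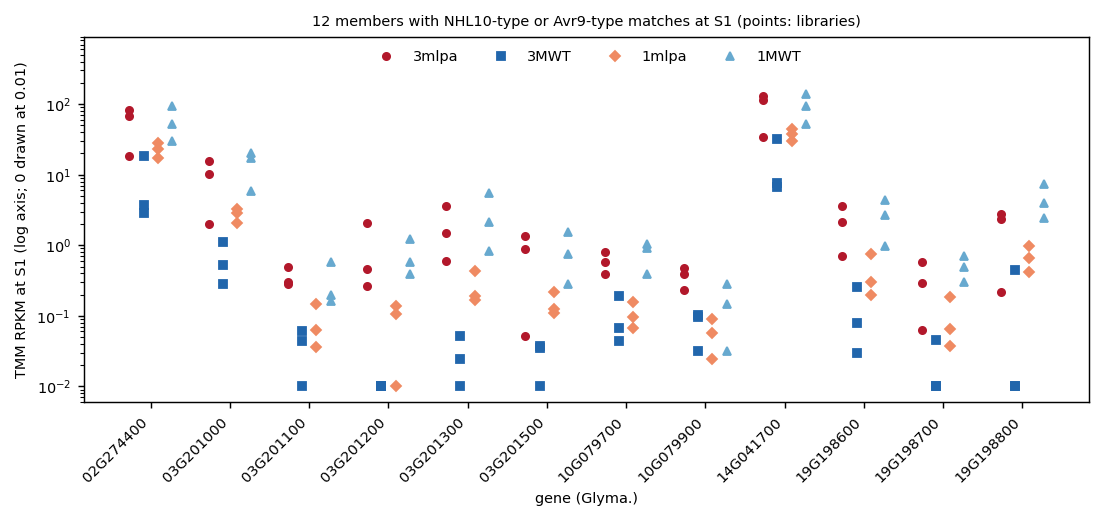
Levels at S1 of the 12 members with NHL10-type or Avr9-type matches, in TMM-scaled RPKM on a log axis, with 0 drawn at 0.01; points are libraries, 3 per line. In 9 of the 12 genes, 3mlpa lies above 3MWT and 1mlpa lies below 1MWT without overlap.

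The near-isogenic pair gave no call. Between 1mlpa and 1MWT, edgeR called 0 members at any of the 5 stages and 0.0731% of all tests over all genes, and DESeq2 called 5 members. Of the member tests, 73 had an unadjusted edgeR p under 0.05. At S1 to S5 these were 31, 11, 13, 16 and 2 of 87 members. Of 40517 genes, 4285, 5070, 3774, 5790 and 1290 had such a p. Levels nevertheless separated at S1 and S4. At S1, 44 members were lower in 1mlpa without overlap and 2 higher, compared with 9.43% and 6.65% of all genes, and 29 of the 44 were LEA and seed maturation genes. The median difference of all LEA and seed maturation genes was -1.09 (log2) with genes without reads at their bound. At S4, 43 members were higher in 1mlpa and 6 lower without overlap (18.8% and 15.9% of all genes). Of the 43, 32 were LEA and seed maturation genes, and the median difference of all genes of that kind was 0.59. PM30 had 20.8, 22.4 and 23.1 RPKM at S1 in 1mlpa and 43.9, 50.0 and 47.6 in 1MWT, and 2115, 2177 and 1952 in 1mlpa and 1392, 1588 and 1453 in 1MWT at S4. At S5 the groups overlapped, with 2780, 2259 and 2668 in 1mlpa and 2968, 2188 and 2922 in 1MWT.

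Storage protein genes were ordered in the same way. Their sum at S1 was 0.787 to 1.16 RPKM in 1mlpa and 19.6 to 24.5 in 1MWT, and at S4 it was 24050 to 29860 and 8683 to 13490. In 1MWT the sum did not rise steadily after S1, as the S2 libraries had 1.14, 2.29 and 182.6 RPKM. Whether seeds of 1 length class were equally advanced in both lines was not tested. Leaving out 1MWT S1 replicate 1 gave 1 call. Leaving out 1MWT S2 replicate 3, 1MWT S3 replicate 2 and 1mlpa S2 replicate 1 together, whose column names carry a suffix, gave 6 calls in edgeR.

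Whether the 3mlpa pair differed from the 1mlpa pair was examined with the contrast between both differences. No table of the authors holds this contrast, but it is the difference of 2 comparisons that chose the members. Its adjusted p therefore describe chosen members and are no independent test. At S1, 19 members were called, all with the difference between 3mlpa and 3MWT above that between 1mlpa and 1MWT. Of all genes, 6.48% were called in either direction, 5.24% higher and 1.24% lower. Most calls over all genes thus had the direction of the members. Of the 19, 13 were hydroxyproline-rich and 6 LEA or seed maturation genes, and 11 belonged to the cluster of 12. That cluster was grouped after its S1 values had been seen and its copies may share reads. Its 11 calls are therefore no separate result. At S2 there were 8 calls (5.46% of all genes), at S3 3 (3.84%), at S4 2 (2.27%) and at S5 2 (1.32%). The 19 at S1 became 11 without 3MWT replicate 1. The 8 at S2 became 3 without 1MWT replicate 1, 19 without 1MWT replicate 3, 5 without replicate 3 of 1mlpa or of 3mlpa, and 20 without the 3 libraries with a suffix. The 8 were 5 higher and 3 lower, and the 20 were 5 higher and 15 lower, so that the prevailing direction turned. Of all genes, 3.67% were called higher and 1.79% lower at S2 with all libraries. The 3 at S3 became 5 without 3mlpa replicate 1 and 1 without 3mlpa replicate 2, 3MWT replicate 3 or 1MWT replicate 1. The 2 at S4 became 7 without 3mlpa replicate 3, and the 2 at S5 became 4 without 1mlpa replicate 3 and 1 without 1mlpa replicate 2, 3MWT replicate 1 or 3mlpa replicate 1.

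Glyma.03G201000 had a difference between the pairs of 6.27 ± 1.19 at S1 (log2, SE; edgeR adjusted p = 0.000178). For the Avr9-named genes it was 4.14 ± 0.94 for Glyma.02G274400 (adjusted p = 0.00132) and 3.95 ± 0.88 for Glyma.14G041700 (adjusted p = 0.00105). In Glyma.14G041700, all 3 libraries of 3mlpa lay above all of 3MWT and all 3 of 1mlpa below all of 1MWT, and in Glyma.02G274400 the second held while the first overlapped by a narrow margin (18.3 and 18.4 RPKM). Neither of these 2 was called with only the compared libraries in the fit (4.13 and 3.95). Glyma.03G000800 had differences of 1.38 ± 0.21 at S2 (adjusted p = 1.79e-05), 1.29 ± 0.22 at S3 (adjusted p = 8.91e-05), 1.5 ± 0.22 at S4 (adjusted p = 1.2e-05) and 1.62 ± 0.23 at S5 (adjusted p = 4.68e-06). Here 3mlpa exceeded 3MWT in every library of these stages, whereas 1mlpa and 1MWT overlapped. With only the compared libraries the S5 call was lost (1.62). For Glyma.03G189200 the difference was 4.64 ± 0.97 at S5 (adjusted p = 0.00217), and it was not called without replicate 1 of 3mlpa (3.79) or of 3MWT (4.35) or replicate 2 of 1mlpa (4.33), or with only the compared libraries (4.64).

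The change from S1 to S5 itself differed between 3mlpa and 3MWT in 5 members (1.93% of all genes) and between 1mlpa and 1MWT in 0 (0% of all genes by edgeR, 0 members by DESeq2). In the 1mlpa pair, 10 of 87 members and 1818 of 40517 genes had an unadjusted edgeR p under 0.05. This contrast is also a difference of comparisons that chose the members, so its adjusted p are no independent test. None of the dehydrins or PM genes was among the 5. With TMM scaling, Glyma.13G349900 (Harpin-induced 1) stayed level in 3mlpa, with 19.3, 16.1 and 18.8 RPKM at S1 and 17.6, 18.4 and 19.1 at S5, and went from 11.2, 7.26 and 9.97 to 27.6, 23.9 and 23.7 in 3MWT. With library totals its change was -0.885 (log2) in 3mlpa, and 0.541 and not called in 3MWT (1.403 and called with TMM). The difference in change with TMM was -1.38 ± 0.23 (log2, SE; edgeR adjusted p = 0.000141). For Glyma.12G187600 (NHL1) it was -1.82 ± 0.31 (adjusted p = 0.000159), as levels went from 16.9, 12.4 and 18.7 to 20.8, 23.9 and 9.51 in 3mlpa and from 9.48, 11.5 and 7.15 to 44.4, 34.9 and 32.8 in 3MWT. For Glyma.19G211600 it was 2.28 ± 0.54 (adjusted p = 0.00519), with the S1 levels given above. The 5 were 1 higher and 4 lower, against 0.548% and 1.39% of all genes. With only the compared libraries in the fit, 1 higher and 0 lower were called, and the calls of Glyma.13G349900 (-1.38) and Glyma.12G187600 (-1.83) were lost. With library totals 0 were higher and 3 lower. The 5 became 3 without S5 replicate 1 or 2 of 3MWT or S5 replicate 1 or 3 of 3mlpa, and 2 without S1 replicate 3 or S5 replicate 2 of 3mlpa.

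The rule had no sharp edge that could be inspected from outside, because genes that were not called carried no annotation. Just inside it were 3 hydroxyproline-rich members whose largest change over the 26 comparisons was smallest. It was 0.94 for Glyma.13G349900, 1.02 for Glyma.15G024400 and 1.03 for Glyma.18G218700 (log2). Glyma.18G218700 had 4.88, 4.47 and 4.66 RPKM at S1 and 1.47, 1.87 and 1.98 at S5 in 1mlpa.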

How the data were processed

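RNA of whole soybean seeds was sequenced in 60 libraries (4 lines, 5 stages, 3 replicates) as 100-base single reads. Per the labels and the study's methods, the authors aligned reads with STAR 2.4.2 to the soybean genome Wm82.a2.v1, counted them per gene with featureCounts 1.4.6 and called genes with DESeq2 1.8.2 in R 3.2.4. How strand and multiply mapped reads were treated is not given in the sources used here. The deposited counts are raw whole numbers per gene, and the deposited RPKM divide these by gene length and library total (largest deviation 0.003% over members with 100 or more reads). The authors' tables of called genes gave annotation text only, and their fold changes, ontology tests and network ranks were not used. Gene coordinates and sequences were not used here.

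Members were the genes whose annotation held the words named in the report. The members and lists were chosen with earlier results of these data known. Counts were fitted with edgeR 4.0.16 (limma 3.58.1, R 4.3.3): TMM scaling (factors 0.593 to 1.34), filterByExpr (40517 genes), a quasi-likelihood fit of all 20 groups (40 residual degrees of freedom) and Benjamini-Hochberg adjustment over all tested genes of a comparison. A gene was called where its adjusted p was below 0.01 and its log2 fold change exceeded 1 in size. Levels are RPKM after TMM scaling, with gene length taken from the deposited RPKM and counts. Precision is limited by 3 libraries per group. The fit was tested on simulated data. Alternatives were DESeq2 1.42.0, its size factors, library totals, no filter, only the compared libraries, a replicate block, adjusted p under 0.05 without a fold limit, CPM ranks, each library left out and, chosen after seeing the data, leaving out 3 libraries with a suffix in their column names and the timing of the rise without single libraries.

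Named members were, in each group of members, up to 6 with the highest mean level and the 3 with the largest rise and fall from S1 to S5. In each comparison of mutant and non-mutant, up to 3 called members without overlap in each direction were added. Up to 6 with the smallest p in the difference between the pairs and the 3 with the smallest largest change completed the list, and the calls of these in the differences are in the closing section. Further members in the text were chosen after their values were seen. Tables were prepared with Python 3.11.15 and pandas 2.3.3, and figures with matplotlib 3.10.9.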

Additional observations from a re-analysis of the deposited data

Results flagged for a closer look

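The differences below are those between the 3mlpa pair and the 1mlpa pair, or between 3mlpa and 3MWT in the change from S1 to S5, that were called by edgeR's quasi-likelihood test, with Benjamini-Hochberg adjusted p and SE on the log2 scale. Each is a difference of comparisons that chose the members, so the adjusted p describe chosen members and are no independent test. For the pairs, a positive value means that mutant minus non-mutant was larger in the 3mlpa pair, and for the change from S1 to S5 that it was larger in 3mlpa than in 3MWT.

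At S1, the difference between the pairs was 6.90 ± 1.45 for Glyma.19G198600 (adjusted p = 0.000586), 6.27 ± 1.19 for Glyma.03G201000 (adjusted p = 0.000178) and 5.38 ± 0.94 for Glyma.10G079700 (adjusted p = 9.51e-05), all of the NHL10 or syringolide-named cluster. That cluster was grouped after its values had been seen. The Avr9-named genes of the same cluster followed, with 4.14 ± 0.94 for Glyma.02G274400 (adjusted p = 0.00132) and 3.95 ± 0.88 for Glyma.14G041700 (adjusted p = 0.00105). For the NHL1-named Glyma.12G187600 it was 1.32 ± 0.30 (adjusted p = 0.00152). These 6 calls held in all 12 fits that left out a library of the compared groups, but those of Glyma.02G274400 (4.13) and Glyma.14G041700 (3.95) were lost with only the compared libraries in the fit. Smaller or less steady values were 1.83 ± 0.51 for the Lea14 homolog Glyma.09G254300 (adjusted p = 0.00864, lost in 8 of the 12 fits at 1.34 to 1.96) and 1.08 ± 0.23 for Glyma.13G349900 (adjusted p = 0.000689), which was lost without replicate 2 of 3MWT (0.91), 1mlpa (0.96) or 1MWT (0.99).

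At S2, Glyma.09G254300 had 2.54 ± 0.53 (adjusted p = 0.000695), Glyma.13G349900 1.16 ± 0.23 (adjusted p = 0.000421, 0.90 and lost without 1MWT replicate 3), Glyma.15G024400 1.00 ± 0.20 (adjusted p = 0.000548, lost in 9 of 12 fits at 0.935 to 0.996), Glyma.13G359200 -1.87 ± 0.43 (adjusted p = 0.00197, -1.58 and lost without 1MWT replicate 1) and the D-34 gene Glyma.U018200 -1.63 ± 0.39 (adjusted p = 0.00262, lost without 1mlpa replicate 3 at -1.49 and without 1MWT replicate 1 at -1.35). Glyma.03G000800 was called at S2 (1.38 ± 0.21, adjusted p = 1.79e-05), S3 (1.29 ± 0.22, adjusted p = 8.91e-05), S4 (1.5 ± 0.22, adjusted p = 1.2e-05) and S5 (1.62 ± 0.23, adjusted p = 4.68e-06), in all 12 fits at each stage, although the S5 call was lost with only the compared libraries.

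At S3, the 35 kDa seed maturation gene Glyma.03G189200 had 5.05 ± 1.20 (adjusted p = 0.00333), which was 3.14 and no longer called without 3mlpa replicate 2, and was also lost without 3MWT replicate 3 (4.95) or 1MWT replicate 1 (4.76). Glyma.10G017600 had 6.33 ± 1.58 (adjusted p = 0.00512), which was 2.45 without 1MWT replicate 1 and was lost in 8 of 12 fits. At S4, Glyma.09G189900 had -1.51 ± 0.29 (adjusted p = 0.000608). At S5, Glyma.03G189200 had 4.64 ± 0.97 (adjusted p = 0.00217), lost without replicate 1 of 3mlpa (3.79) or 3MWT (4.35) or replicate 2 of 1mlpa (4.33).

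The change from S1 to S5 differed between 3mlpa and 3MWT by -1.82 ± 0.31 for Glyma.12G187600 (adjusted p = 0.000159), -1.38 ± 0.23 for Glyma.13G349900 (adjusted p = 0.000141), -2.10 ± 0.53 for Glyma.13G359200 (adjusted p = 0.00875, lost in 10 of 12 fits at -2.29 to -1.725), -1.05 ± 0.21 for Glyma.15G024400 (adjusted p = 0.00119, lost in 5 at -0.98 to -0.88) and 2.28 ± 0.54 for Glyma.19G211600 (adjusted p = 0.00519, lost in 5 at 2.09 to 2.29).

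Fits with only the compared libraries, which have fewer samples, also lost the calls of Glyma.09G254300 (1.83) and Glyma.13G349900 (1.09) at S1, Glyma.13G359200 (-1.84) and Glyma.U018200 (-1.61) at S2, Glyma.03G189200 (5.07) and Glyma.10G017600 (6.35) at S3 and Glyma.03G189200 (4.64) at S5. In the change from S1 to S5 they lost Glyma.12G187600 (-1.83), Glyma.13G349900 (-1.38), Glyma.13G359200 (-2.10) and Glyma.15G024400 (-1.05). Without the 3 libraries with a suffix, Glyma.13G349900 (0.93) and Glyma.15G024400 (0.99) were not called at S2. Without the filter on low counts, Glyma.15G024400 (0.997) was lost at S2 and Glyma.13G359200 (-2.08) in the change from S1 to S5, and with library totals Glyma.13G359200 (-2.12) and Glyma.19G211600 (2.24) were lost in that change.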

How the results depend on the processing

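No called value of a single member changed sign under any setting run, whereas the prevailing direction of calls turned in some comparisons. Between 3mlpa and 3MWT, 10 higher and 1 lower at S1 became 0 and 1, and 6 and 7 at S5 became 1 and 0, with only the compared libraries, and S5 became 7 and 5 with library totals. In the difference of S5 against S1 in that pair, 1 and 4 became 1 and 0 with only the compared libraries. In the difference between the pairs at S2, 5 and 3 became 5 and 15 without the 3 libraries with a suffix, and at S4, 1 and 1 became 3 and 4 with only the compared libraries and 6 and 1 with library totals. Counts of called members in S5 against S1 stayed within 1.5 times of the main counts under every setting, with 61 to 70 calls in 3mlpa (68 in full), 56 to 58 in 3MWT (58), 60 to 62 in 1mlpa (63) and 63 to 68 in 1MWT (71) when single libraries were left out. Other counts moved. Left-out libraries gave 2 to 15 calls at S1, 2 to 3 at S2, 2 to 15 at S3, 3 to 6 at S4 and 5 to 13 at S5 between 3mlpa and 3MWT. They gave 11 to 27 at S1, 3 to 19 at S2, 1 to 5 at S3, 2 to 7 at S4 and 1 to 4 at S5 for the difference between the pairs. They gave 2 to 5 for the difference of S5 against S1 between 3mlpa and 3MWT and 0 between 1mlpa and 1MWT, 210 to 244 over the 16 steps, and 0 to 1 between 1mlpa and 1MWT.

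With an adjusted p under 0.05 and no fold limit, 24, 16, 15, 14 and 21 members passed between 3mlpa and 3MWT at S1 to S5, 19, 11, 9 and 7 in the difference between the pairs at S2 to S5, 390 over the 16 steps and 5 between 1mlpa and 1MWT. Shares of all genes at this and the other settings are not given, so nothing is read about the members from these counts. Between 3mlpa and 3MWT, 29, 29, 25, 25 and 34 of 87 members had an unadjusted edgeR p under 0.05 at S1 to S5. Of the 40517 genes tested, 15992, 14470, 15024, 10829 and 14186 did. With only the compared libraries in the fit, which leaves fewer samples, calls between 3mlpa and 3MWT were 1 at S1, 1 at S3, 2 at S4 and 1 at S5. The same fits gave 12 at S1, 5 at S2, 7 at S4 and 0 at S5 for the difference between the pairs, 1 for the difference of S5 against S1 in the 3mlpa pair and 7 between 1mlpa and 1MWT. DESeq2 called 5 members in the difference between the pairs at S3, 5 at S4 and 5 between 1mlpa and 1MWT. Library totals gave 7 in the difference between the pairs at S4, 3 in the difference of S5 against S1 and 1 between 1mlpa and 1MWT. Without the 3 libraries with a suffix, 20 members were called in the difference between the pairs at S2 and 6 between 1mlpa and 1MWT. Fits with only the compared libraries also repeat the filter, the scaling and the estimate of spread. Why counts differed between settings was not tested.

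With the replicate number as a block, 68, 57, 63 and 73 members were called from S1 to S5 in 3mlpa, 3MWT, 1mlpa and 1MWT, and 233 over the 16 steps. Same-numbered libraries did not deviate together in every pair of any comparison, so the numbers were not taken as pairs. Of 156 values of single members, 153 kept their call or lack of one under the block, 142 with library totals, 154 with DESeq2, 152 with no filter and 153 without the libraries with a suffix. With only the compared libraries 112 of 142 did, and 30 lost their call. PM30 and PM34 ranked first and second by level in CPM as in RPKM. Promoter motif counts, which were planned, were not run.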
